A study of Mus musculus with 6 samples.

Results

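The interleukin and tumor necrosis factor (TNF) families with their receptors were taken as every gene whose symbol begins with Il and a digit, Tnfsf or Tnfrsf. There were 106 such genes among the 29752 in each file, and 46 of them had a mean of 1 FPKM or more over the 6 libraries (FPKM, reads scaled to gene length and to the reads of the library). The RNA was from C57BL/6 mouse aorta taken at 15 weeks of age, after 7 weeks of normal diet begun at 8 weeks. One group was wild type (3 libraries, titled Ctrl) and the other was PALMD+/-, heterozygous for the gene that encodes palmdelphin (3 libraries). The labels do not give the altered part of the gene, the sex of the mice, or whether each library was 1 animal or a pool, so a p-value measures the spread between these samples, which may be technical.

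Interleukins are secreted proteins that carry signals between cells, mostly through receptor complexes of a private chain, which binds 1 or a few ligands, and a shared chain, which starts JAK-STAT or MyD88 signalling. TNF family ligands are trimers that engage receptors with cysteine-rich repeats, and these recruit TRAF or death domain adaptors that lead to NF-kappa-B activity or to cell death. Decoy receptors and binding proteins hold ligands without signalling. In the vessel wall these systems are known for communication between smooth muscle, endothelium, fibroblasts and resident leukocytes, and for inflammation and remodelling.

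Palmd itself was at 5.49, 7.88 and 10.1 FPKM in the wild-type replicates 1 to 3, against 5.31, 7.19 and 6.21 FPKM in replicates 1 to 3 of the heterozygotes, with groups that overlapped. Each library rested on 17283951 to 18372131 reads. Heterozygote replicate 2 stood apart, with a mean correlation of 0.915 with the other libraries against 0.956 to 0.967 for the rest. Its summed marker levels were low for smooth muscle (4726 FPKM against 7071 to 10190 FPKM in the other 5 libraries), endothelium (235 against 711 to 797 FPKM) and cartilage (121 against 820.2 to 998 FPKM), and high for white adipocytes (4417 against 1362 to 3295 FPKM) and Schwann cells (74.0 against 16.2 to 23.3 FPKM). The smooth muscle, endothelial and fibroblast markers were all above 1 FPKM, as the tissue label says, while 6 of 8 T and NK cell markers, 3 of 6 B and plasma cell markers and 5 of 6 neutrophil markers had means under 1 FPKM. In bulk tissue, fewer cells of a type and less RNA per cell cannot be told apart. Beside several results the value without heterozygote replicate 2 is also given.

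Receptors made up most of the message. Of 55 receptor genes 29 were at 1 FPKM or more (52.7%), against 13 of 39 ligands (33.3%) and 4 of 8 decoys and binding proteins, where 42.7% of all genes in the files reached that level. The 4 genes with the highest means, all receptors, held 62.6% of the summed FPKM of the 106 members. At the other end 38 members were under 0.1 FPKM, and Il21 and Il24 were listed at 0 in every library. The other 4 matching symbols, the amino acid oxidase Il4i1, the antisense RNAs Il1bos and Tnfsf13os and the readthrough gene Tnfsfm13, were all below 1 FPKM. The threshold of 1 FPKM fell in a dense range of values. Just above it lay Tnfsf9, Il1rap and Il2rb with means of 1.03, 1.03 and 1.00 FPKM, and just below it Il31ra, Tnfrsf26 and Tnfrsf19 with 0.947, 0.854 and 0.763 FPKM. Tnfsf9 was at 1.16, 1.15 and 1.04 FPKM in the wild-type libraries, against 0.801, 0.517 and 1.51 FPKM in the heterozygous ones. Il31ra, a receptor chain for the itch cytokine IL-31, was at 0.588, 0.672 and 1.27 FPKM and at 0.879, 1.12 and 1.15 FPKM in the same order. Tnfrsf26 was at 0.901, 1.02 and 1.04 FPKM and at 0.953, 0.252 and 0.970 FPKM, and Tnfrsf19 at 0.705, 0.597 and 0.715 FPKM and at 0.763, 0.525 and 1.27 FPKM. The groups of these 4 genes overlapped. Of the 46 members, 39 were at 1 FPKM or more in all 6 libraries, and 6 of the 60 others reached that level in at least 1 library.

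**Figure D1:**
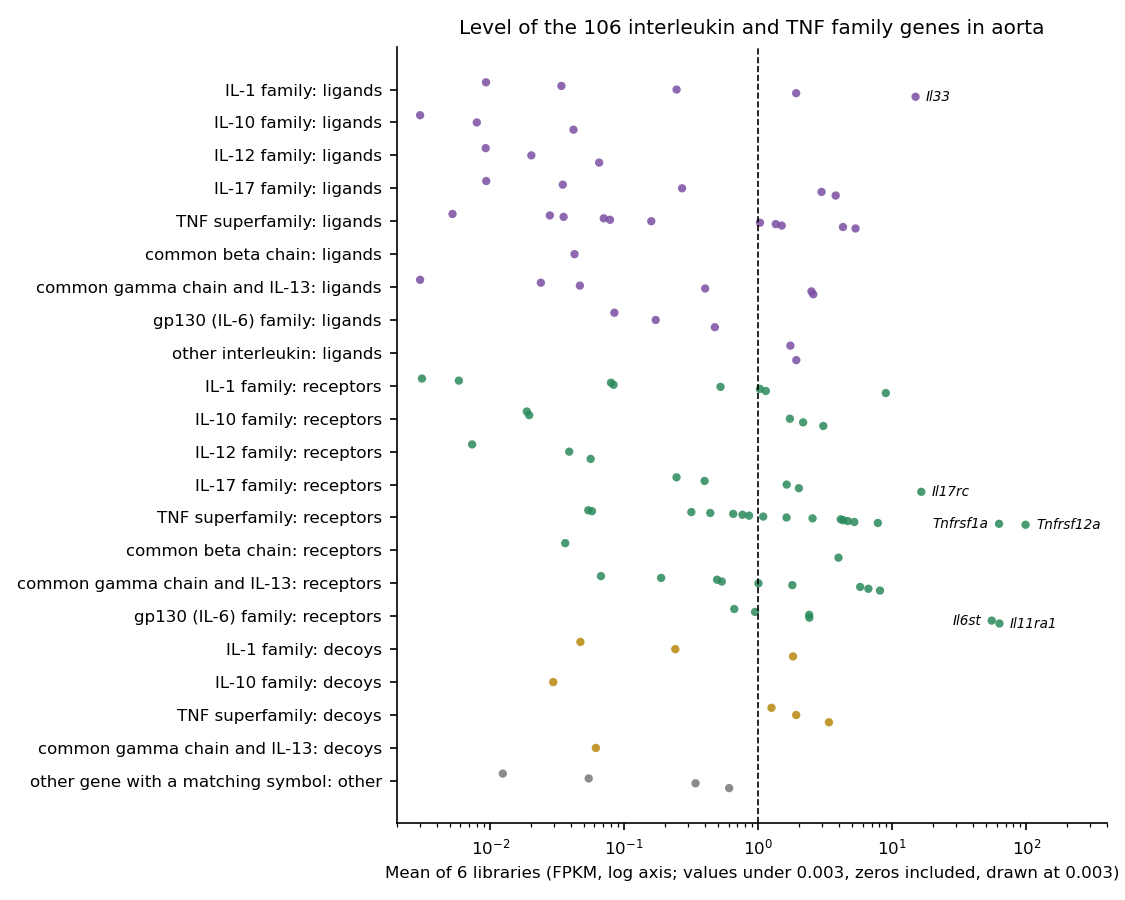
Mean FPKM of the 6 libraries (log axis) for each of the 106 genes, 1 point a gene, in rows by family and role; the dashed line marks 1 FPKM. The 6 labelled genes, of which Il33 is the only ligand, lie above all others.

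Complete receptor complexes often stood without their ligand. Ligands and receptor chains were paired by hand into 33 systems, with Tnf and Csf1r added. The ligands Il5, Il16, Il17d, Il19 and Il24 were left out, of which Il16 (1.74 FPKM) and Il17d (3.78 FPKM) were above 1 FPKM. No gene with the symbol Il3, Il9, Il17a, Il20, Il22 or Il31 was among the 106, so the level of these ligands is not known here. Of the 33 systems, 14 had every receptor chain at 1 FPKM or more and a ligand below it, 6 the reverse, 5 had both and 8 neither. IL-1 and IL-36 are among the 14 only through Il1rap, at 0.931 FPKM on average in wild type and 1.13 FPKM in heterozygotes. The systems with receptors but little ligand included IL-6 (Il6 at 0.0844 FPKM on average, with Il6ra at 2.40 and Il6st at 55.2 FPKM), IL-11 (Il11 at 0.475 and Il11ra1 at 63.1 FPKM), TNF (Tnf at 0.168 FPKM, with Tnfrsf1a at 62.6 and Tnfrsf1b at 7.80 FPKM) and RANKL (Tnfsf11 at 0.0783 and Tnfrsf11a at 5.21 FPKM). IL-33 showed the opposite pattern, with the ligand Il33 at 14.9 FPKM and its private receptor chain Il1rl1 at 0.523 FPKM. Il18 was likewise at 1.92 FPKM with its receptor chains Il18r1 and Il18rap at 0.0832 and 0.0797 FPKM, and the inhibitor that binds it, Il18bp, at 1.82 FPKM. Systems with all parts present were IL-4, IL-15, IL-34, TWEAK (Tnfsf12 at 5.32 and Tnfrsf12a at 98.7 FPKM) and TRAIL (Tnfsf10 at 4.29 and Tnfrsf10b at 2.54 FPKM). IL-15 is among them only through Il2rb, which was at 0.749 FPKM on average in wild type and 1.26 FPKM in heterozygotes. For IL-4, the ligand Il4 had 42 to 72 reads a library, and Kif3a (8.56 FPKM) lies 1015 bases from it on the other strand. The part of Kif3a in the Il4 level was not tested. These are messages of the whole wall, and the cells that carry them were not separated.

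No member was called between the genotypes in the fit over all genes. With limma on log2(FPKM + 1), 0 of the 46 members had a Benjamini-Hochberg adjusted p under 0.05 in either direction, and the same held for 0% of the 12701 genes tested. The smallest adjusted p was 0.66 among the members and 0.26 among all genes. At an unadjusted p under 0.05 there were 2 members, both lower in heterozygotes (4.35% of the members, against 2.41% of all tested genes), and 0 higher (against 3.87%), and limma voom on recovered reads had 0 adjusted calls and 3 members at an unadjusted p under 0.05. All 3 heterozygote values lay below all 3 wild-type values for 4 members (8.7%, background 5.07%) and above them for 2 members (4.35%, background 7.72%), together 13% of the members beside 12.8% of all tested genes. With median-of-ratios scaling the members' counts were the same, and the background was 7.49% lower and 6.13% higher. Taken in both directions together, the share of members whose groups did not overlap was close to that of all genes. Taken apart, the lower share was above the background and the higher share below it, on 4 and 2 members. Both higher members, Il2rb and Il1rap, had a wild-type mean under 1 FPKM and entered the count through the group where they were high.

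The sizes of the differences were small. On the log2 scale 37 of 46 members had a fold change between -0.25 and 0.25, and the median size was 0.122, beside 0.118 for all tested genes. The 95% interval lay within a fold of 2 in both directions for 41 members, and adding 1 FPKM before the logarithm makes the changes of low genes look smaller. The standard error ranged from 0.099 to 0.444 with a median of 0.166. The median fold change of the members was -0.069, against 0.015 for all tested genes, and 29 of 46 were on the lower side (63%, against 46.5% of all tested genes). The median member was at -0.207 relative to the wild-type mean in heterozygote replicate 2, and at -0.003 and 0.021 in heterozygote replicates 1 and 3. Without heterozygote replicate 2 the median was 0.020, beside 0.030 for all genes, and 20 of 46 members were on the lower side.

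**Figure D2:**
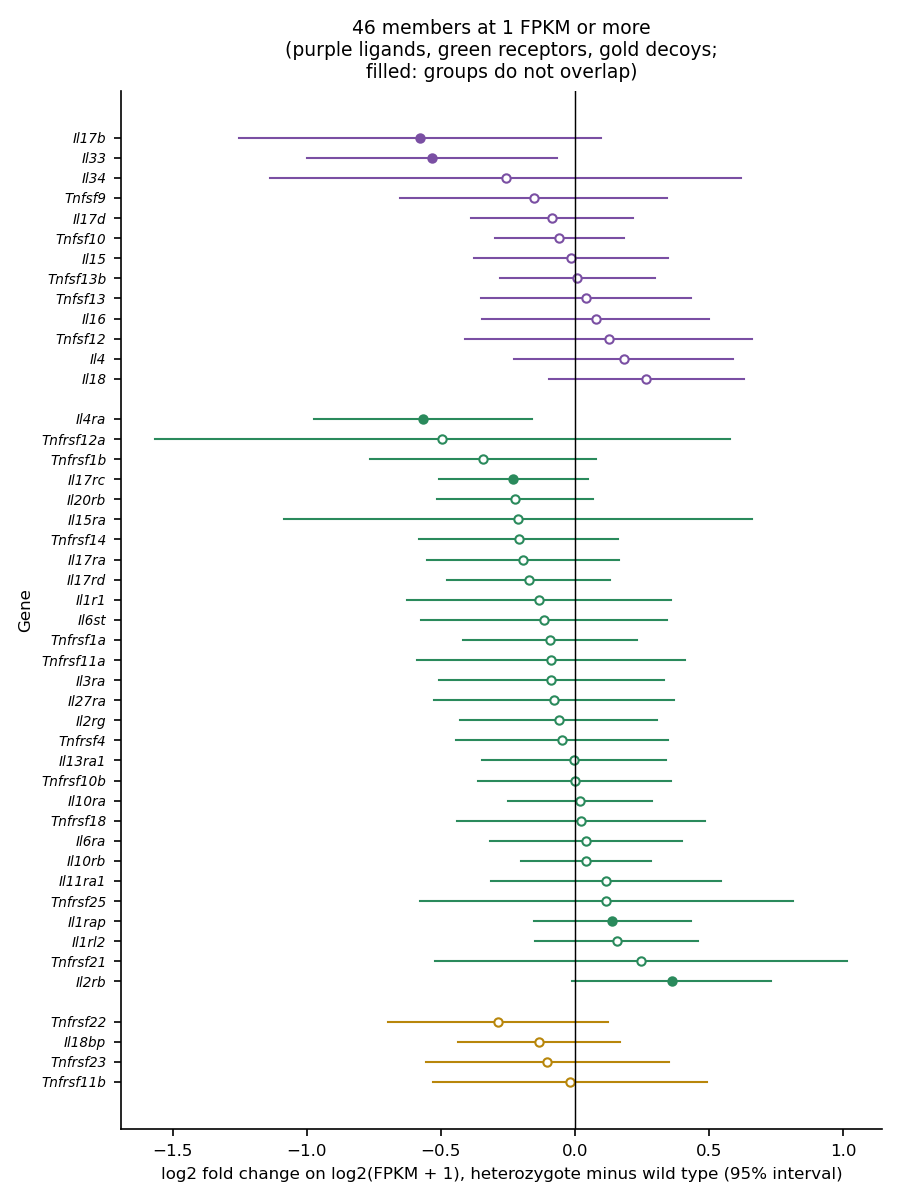
Log2 fold change (x axis, heterozygote minus wild type on log2(FPKM + 1), with its 95% interval) of the 46 members at 1 FPKM or more, 1 row a gene, grouped as ligands, receptors and decoys; filled points have groups that did not overlap. Only Il33 and Il4ra have intervals that do not cross 0, before any adjustment for the number of genes.

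Among the ligands, Il33 had the highest level. It encodes IL-33, a nuclear alarmin of the IL-1 family that barrier and stromal cells release on damage (GRCm38 chromosome 19, 29925114 to 29960718). Il33 was at 14.1, 18.5 and 20.8 FPKM in the wild-type replicates 1 to 3, against 13.7, 9.36 and 13.0 FPKM in replicates 1 to 3 of the heterozygotes. The groups did not overlap, but the lowest wild-type library and the highest heterozygote library nearly met. The means were 17.8 ± 3.38 and 12.02 ± 2.33 FPKM (SD, n = 3), with a log2 fold change of -0.53 (SE 0.19, limma adjusted p = 0.753), which was -0.38 without heterozygote replicate 2. The endothelial marker sum was also lowest in that library, and its part in the Il33 level was not tested.

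Il4ra showed the lowest p of all members. It encodes the chain shared by the IL-4 and IL-13 receptors (chromosome 7, 125552120 to 125579474). It was at 7.45, 10.8 and 11.5 FPKM in the wild-type libraries, against 5.62, 6.41 and 6.81 FPKM in the heterozygous ones. All heterozygote values were below the wild-type values, and wild type replicate 1 was close to them. The means were 9.91 ± 2.17 and 6.28 ± 0.603 FPKM (SD, n = 3), and the log2 fold change was -0.57 (SE 0.17, limma adjusted p = 0.66), or -0.58 without heterozygote replicate 2. A predicted gene on the opposite strand, Gm44876, overlaps 9.5% of its exons, and the library kit is not stated to keep strand. The means of its partner chains were close. Il13ra1, the chain that completes the receptor on non-blood cells, had means of 6.60 ± 0.311 and 6.66 ± 1.32 FPKM, and Il2rg, the common gamma chain, 1.86 ± 0.452 and 1.73 ± 0.259 FPKM. The gene Gm20489, on the same strand as Il2rg, overlaps 30.5% of the exons of Il2rg.

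Il17rc and Il17b of the IL-17 family were the other members with all heterozygote values lower. Il17rc, which pairs with Il17ra to bind IL-17A and IL-17F, was at 17.7, 18.4 and 17.3 FPKM in the wild-type libraries, against 14.8, 13.3 and 17.2 FPKM in the heterozygous ones. Heterozygote replicate 3 lay just under the lowest wild-type library. The log2 fold change was -0.23 (SE 0.12, limma adjusted p = 0.825) and -0.15 without heterozygote replicate 2. The ligand gene Il17b was at 4.35, 3.22 and 3.45 FPKM in the wild-type libraries, against 2.69, 1.00 and 3.09 FPKM in the heterozygous ones. Its log2 fold change of -0.58 (SE 0.28, limma adjusted p = 0.819) came down to -0.26 without heterozygote replicate 2, where it was lowest. The same library had the lowest cartilage marker sum, and the part of that in the Il17b level was not tested. The Il17b values rest on about 77, 58 and 60 reads in wild type and 48, 17 and 55 in heterozygotes. These recovered reads were not whole numbers in every library. Gm38165, on the opposite strand, overlaps 14.5% of the Il17b exons. The other IL-17 family members above 1 FPKM overlapped between groups, with means of 3.93 ± 0.637 and 3.63 ± 0.365 FPKM for the ligand Il17d, 1.81 ± 0.410 and 1.45 ± 0.172 FPKM for Il17ra and 2.18 ± 0.175 and 1.84 ± 0.332 FPKM for Il17rd, a relative that also dampens FGF signalling.

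Il2rb and Il1rap were the members with all heterozygote values higher, both close to the 1 FPKM threshold. Il2rb, the signalling chain for IL-2 and IL-15 on T and NK cells, was at 0.668, 0.860 and 0.718 FPKM in the wild-type libraries, against 0.924, 1.54 and 1.32 FPKM in the heterozygous ones (limma log2 fold change 0.36 with SE 0.15 and adjusted p = 0.79), and the fold change was 0.27 without heterozygote replicate 2. It reached the mean of 1 FPKM only through the heterozygotes, and 2 libraries were at 1 FPKM or more. The summed level of the 8 T and NK cell markers was 1.86 to 3.26 FPKM in wild type and 3.25 to 7.18 FPKM in heterozygotes, with Cd3e, Cd3d, Cd3g, Cd8a, Ncr1 and Klrb1c under 1 FPKM on average, and its part in the Il2rb level was not tested. Il1rap, the shared signalling chain of the IL-1, IL-33 and IL-36 receptors, was at 1.02, 0.877 and 0.894 FPKM in the wild-type libraries, against 1.21, 1.03 and 1.14 FPKM in the heterozygous ones (limma log2 fold change 0.14 with SE 0.12 and adjusted p = 0.928), or 0.17 without heterozygote replicate 2. It too reached the mean of 1 FPKM only through the heterozygotes, with means of 0.931 ± 0.0787 and 1.13 ± 0.0935 FPKM. The gap between the groups was smaller than the range within either.

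**Figure D3:**
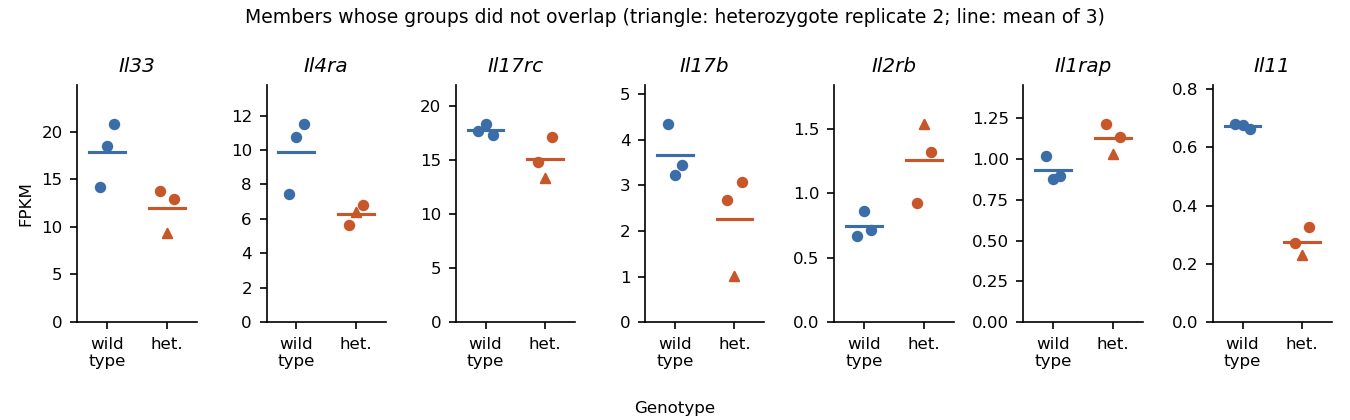
FPKM (y axes from 0, 1 scale a gene) in the 3 wild-type and 3 heterozygote libraries for the 6 members at 1 FPKM or more whose groups did not overlap and for Il11, which was below that level. Lines are means of 3, and the triangle is heterozygote replicate 2, which is lowest of all libraries for Il33, Il17rc, Il17b and Il11.

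The sequences before the starts of Il33 are shown beside that of the TNF receptor gene Tnfrsf1b, since Il33 is the highest ligand and a member whose groups did not overlap and Tnfrsf1b holds a STAT motif. Each is the 250 bases upstream of a RefSeq start in GRCm38.p6, 5′ to 3′ on the strand of the gene, with capitals for motif matches on either strand. The GAS element that STAT proteins bind was searched as TTCNNNGAA. The AP-1 site was searched as TGANTCA and the E-box as CACGTG. The TATA box was TATAAA, and the NF-kappa-B consensus is given by name. No capitals overlap another motif. Il33 has 2 starts in the table, chr19:29924863-29925112 and chr19:29945540-29945789, both on the plus strand. The downstream window lies inside the annotated gene and the upstream one before it. Tnfrsf1b is at chr4:145246871-145247120 on the minus strand. The windows of Il4ra, Il17rc and Tnfrsf1a have 151, 28 and 250 of their bases inside the annotated gene and are described without their letters.
Il33 upstream start: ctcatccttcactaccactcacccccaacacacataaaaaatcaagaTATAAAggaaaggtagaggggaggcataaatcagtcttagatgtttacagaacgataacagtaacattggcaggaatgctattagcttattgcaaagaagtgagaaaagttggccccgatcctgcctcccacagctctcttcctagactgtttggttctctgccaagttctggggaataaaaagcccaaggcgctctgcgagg
Il33 downstream start: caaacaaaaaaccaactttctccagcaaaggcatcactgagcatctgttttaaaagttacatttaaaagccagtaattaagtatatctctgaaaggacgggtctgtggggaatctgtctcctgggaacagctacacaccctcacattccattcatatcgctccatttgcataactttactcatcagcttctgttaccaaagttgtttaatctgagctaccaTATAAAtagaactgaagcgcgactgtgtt
Tnfrsf1b: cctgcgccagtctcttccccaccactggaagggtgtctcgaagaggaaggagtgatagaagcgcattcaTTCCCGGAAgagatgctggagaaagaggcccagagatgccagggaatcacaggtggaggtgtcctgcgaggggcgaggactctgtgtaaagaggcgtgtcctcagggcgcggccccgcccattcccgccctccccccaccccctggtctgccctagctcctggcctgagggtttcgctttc
Both Il33 windows hold a TATA box match, the downstream one 29 bases before the start and the upstream one 203 bases before it. Both TNF receptor windows hold a GAS match, 244 and 181 bases before the start. None of the 5 motifs was found in the Il4ra and Il17rc windows. Of 32851 mouse windows of this length, 7.02% held a GAS match, 6.75% AP-1, 3.9% the NF-kappa-B consensus, 6.02% an E-box and 12.4% a TATA box. Of the 42 windows of the 33 members found in the table, 9.52%, 9.52%, 4.76%, 4.76% and 11.9% held a match, in that order. A match describes letters in a window and not a bound site.

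The most abundant member was Tnfrsf12a. It encodes Fn14, the receptor of the ligand TWEAK and a gene induced early by growth factors. Tnfrsf12a was at 129, 111 and 91.5 FPKM in the wild-type libraries, against 114, 37.0 and 109 FPKM in the heterozygous ones. Heterozygote replicate 2 alone was low, while the other 5 libraries lay together. The log2 fold change of -0.49 (SE 0.44, limma adjusted p = 0.928) became 0.03 without that library. Its ligand gene Tnfsf12 was at 5.35, 5.78 and 3.89 FPKM in the wild-type libraries, against 6.51, 3.78 and 6.61 FPKM in the heterozygous ones (limma log2 fold change 0.13 with SE 0.22 and adjusted p = 0.96), again with heterozygote replicate 2 lowest. Without that library the fold change was 0.35, with the heterozygotes above all wild-type values (limma adjusted p = 0.389). The readthrough gene Tnfsfm13 covers 48.3% of the exons of Tnfsf12, so the reads of these genes cannot be fully assigned.

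The receptors of TNF differed in level and showed no call. Tnfrsf1a, the death domain receptor found on most cells, was at 58.3, 69.7 and 65.9 FPKM in the wild-type libraries, against 62.1, 53.8 and 66.0 FPKM in the heterozygous ones (limma log2 fold change -0.09 with SE 0.13 and adjusted p = 0.952), or -0.011 without heterozygote replicate 2. Tnfrsf1b, the TRAF-binding receptor of leukocytes and endothelium, was at 7.71, 10.8 and 8.00 FPKM in the wild-type libraries, against 7.92, 5.39 and 6.97 FPKM in the heterozygous ones (limma log2 fold change -0.34 with SE 0.17 and adjusted p = 0.831), or -0.21 without heterozygote replicate 2. The groups of both genes overlapped. Tnfrsf1a varied little, with a coefficient of variation of 9.24% over the 6 libraries. The ligand Tnf stayed between 0.0668 and 0.365 FPKM.

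The RANK, TRAIL and lymphotoxin-like receptors overlapped between the groups. Tnfrsf11a, which encodes RANK, had means of 5.40 ± 1.36 and 5.01 ± 1.19 FPKM, and Tnfrsf11b, the decoy osteoprotegerin that binds RANKL and TRAIL and is known as an inhibitor of vascular calcification, 3.41 ± 1.03 and 3.33 ± 0.817 FPKM. Tnfrsf10b, the single mouse death receptor for TRAIL, had means of 2.55 ± 0.539 and 2.54 ± 0.388 FPKM, and the ligand Tnfsf10 4.40 ± 0.450 and 4.18 ± 0.249 FPKM. The TRAIL-binding decoys Tnfrsf22 and Tnfrsf23 were at 2.19 ± 0.283 and 1.64 ± 0.505 FPKM and at 1.32 ± 0.169 and 1.19 ± 0.450 FPKM. These decoys are neighbours on chromosome 7 and share sequence, with 27.4% and 19.3% of their 50-base words found in transcripts of other genes, mainly of each other. Tnfrsf14, the receptor of LIGHT, had means of 4.68 ± 0.849 and 3.91 ± 0.660 FPKM, and Tnfrsf25, a death domain receptor of T cells whose ligand is TL1A, 4.39 ± 1.34 and 4.92 ± 1.93 FPKM. The T cell costimulatory receptors Tnfrsf18 and Tnfrsf4, adjacent on chromosome 4, stood at 1.61 ± 0.485 and 1.64 ± 0.397 FPKM and at 1.13 ± 0.289 and 1.05 ± 0.222 FPKM. The B cell factors Tnfsf13 and Tnfsf13b, known as APRIL and BAFF, were at 1.45 ± 0.248 and 1.54 ± 0.436 FPKM and at 1.34 ± 0.152 and 1.36 ± 0.135 FPKM, and the 4-1BB ligand Tnfsf9 at 1.12 ± 0.0666 and 0.944 ± 0.513 FPKM. In each of these pairs the wild-type mean is given first. The readthrough gene Tnfsfm13 and the antisense RNA Tnfsf13os together overlap 60% of the exons of Tnfsf13, which had 37 to 61 reads a library.

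Receptors that signal through gp130 were among the highest. Il6st, which encodes gp130 itself, the shared chain of the IL-6 family, was at 60.7, 55.1 and 55.2 FPKM in the wild-type libraries, against 66.0, 40.5 and 53.9 FPKM in the heterozygous ones (limma log2 fold change -0.12 with SE 0.19 and adjusted p = 0.957), or 0.07 without heterozygote replicate 2. Il11ra1, the private chain for IL-11, was at 62.0, 62.3 and 56.0 FPKM in the wild-type libraries, against 68.4, 51.5 and 78.6 FPKM in the heterozygous ones (limma log2 fold change 0.12 with SE 0.18 and adjusted p = 0.954). Without heterozygote replicate 2 it was 0.28, with the heterozygotes above all wild-type values (unadjusted p = 0.0406, limma adjusted p = 0.351). Heterozygote replicate 2 was the lowest of the 6 libraries for both genes. Of the 50-base words in Il11ra1 transcripts 46.3% occur in the copy Gm13305, and for Il11ra2 (0.662 FPKM) the share was 100%, so the level of these copies depends on how shared reads were counted. Il6ra, the private chain for IL-6, measured 2.35 ± 0.412 and 2.45 ± 0.480 FPKM in wild type and heterozygotes and Il27ra, that for IL-27, at 2.47 ± 0.0775 and 2.35 ± 0.777 FPKM.

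The remaining interleukin receptors also overlapped between groups, and of each pair of means the wild-type one is given first. Il1r1, the signalling receptor for IL-1, was at 9.63, 9.23 and 8.98 FPKM in the wild-type libraries, against 10.2, 5.75 and 9.95 FPKM in the heterozygous ones (limma log2 fold change -0.13 with SE 0.20 and adjusted p = 0.956). Here too only heterozygote replicate 2 was low, and the fold change was 0.10 without it. Il1rl2, the IL-36 receptor, was at 1.02 ± 0.166 and 1.25 ± 0.0906 FPKM. Il3ra, which binds IL-3 together with a common beta chain, was at 4.08 ± 0.195 and 3.86 ± 1.12 FPKM. The IL-10 receptor chains Il10ra and Il10rb were at 2.14 ± 0.185 and 2.18 ± 0.260 FPKM and at 3.00 ± 0.338 and 3.11 ± 0.132 FPKM, while Il20rb, a chain for IL-19, IL-20 and IL-24, was at 1.93 ± 0.231 and 1.51 ± 0.185 FPKM. Il13ra1 was at 6.96, 6.48 and 6.37 FPKM in the wild-type libraries, against 7.01, 5.21 and 7.77 FPKM in the heterozygous ones (limma log2 fold change -0.0032 with SE 0.14 and adjusted p = 0.999), and the fold change was 0.14 without heterozygote replicate 2.

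**Figure D4:**
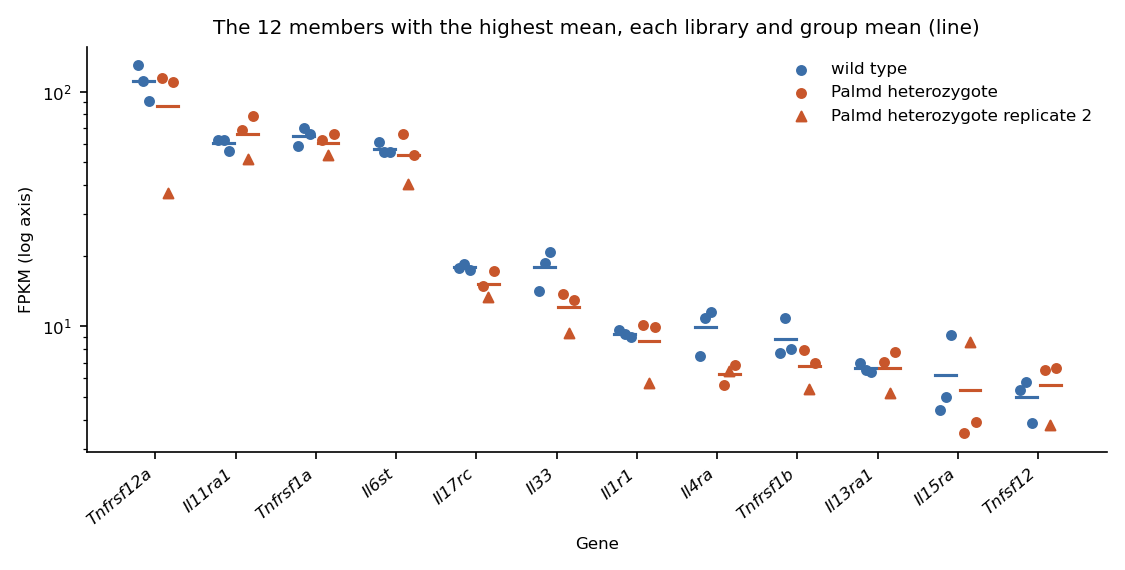
FPKM (log axis) of the 12 members with the highest mean in each library, wild type in blue and heterozygote in orange, with the mean of 3 as a line. The triangle, heterozygote replicate 2, is the lowest point of all 6 libraries for 10 of these genes, and for Il15ra it lies with wild type replicate 3 above the other 4.

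A few members varied widely between libraries. The largest coefficients of variation over the 6 libraries were 53.8% for Il34, 47% for Tnfrsf21 and 43% for Il15ra, where the median was 21% for the 46 members and 15.7% for all tested genes. Il15ra, which presents IL-15 to neighbouring cells, was at 4.39, 4.98 and 9.19 FPKM in the wild-type libraries, against 3.50, 8.58 and 3.92 FPKM in the heterozygous ones. Wild type replicate 3 and heterozygote replicate 2 were high, and these libraries also had the highest white adipocyte marker sums, 3295 and 4417 FPKM against 1362 to 2254 FPKM in the others. The part of fat in the Il15ra level was not tested. Its log2 fold change was -0.21 (SE 0.36, limma adjusted p = 0.958), -0.55 without heterozygote replicate 2 and 0.07 without wild type replicate 3. The ligand Il15 had means of 2.50 ± 0.291 and 2.49 ± 0.580 FPKM in wild type and heterozygotes.

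Il34, a second ligand of the macrophage growth factor receptor Csf1r, was at 1.96, 1.78 and 2.41 FPKM in the wild-type libraries, against 0.923, 3.63 and 0.839 FPKM in the heterozygous ones. Heterozygote replicate 2 was the highest of all libraries and the other heterozygotes the lowest, so the group mean described no library. The log2 fold change was -0.26 with all libraries (SE 0.36, limma adjusted p = 0.951) and -0.69 without heterozygote replicate 2 (SE 0.14, limma adjusted p = 0.24), the lowest p of any member in that comparison. Csf1r itself was at 15.6, 18.9 and 17.0 FPKM in the wild-type libraries, against 22.01, 20.8 and 24.5 FPKM in the heterozygous ones, with groups that did not overlap (limma log2 fold change 0.37 with SE 0.12 and adjusted p = 0.671). The macrophage marker sum, which includes Csf1r, ranged from 209 to 254 FPKM in wild type and from 220 to 291 FPKM in heterozygotes.

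Tnfrsf21, known as death receptor 6 and studied mainly in neurons and glia, was at 4.01, 3.18 and 3.32 FPKM in the wild-type libraries, against 3.35, 8.01 and 2.87 FPKM in the heterozygous ones. Only heterozygote replicate 2 was high, the library with the highest Schwann cell marker sum. The log2 fold change went from 0.25 (SE 0.32, limma adjusted p = 0.948) to -0.13 without it. Ngfr, a TNF receptor family gene that the symbol rule does not take in and a marker of Schwann cells and nerve, was at 69.1 FPKM in that library and at 0.318 to 4.21 FPKM in the others. The part of nerve tissue in the Tnfrsf21 level was not tested.

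Heterozygote replicate 2 had the lowest value of the 6 libraries for 24 of 46 members (52.2%), where it was lowest for 34% of all tested genes, and the highest value for 7 members (15.2%, against 27.1% of all tested genes). In no other library were more than 6 members lowest. Leaving it out, groups were apart for 7 higher members (15.2%, background 20.5%) and 6 lower ones (13%, background 12.5%). The members lower in both comparisons were Il33, Il4ra, Il17rc and Il17b, joined by Il34 and Il15ra, and on the higher side Il2rb and Il1rap were joined by Il11ra1, Tnfsf12, Il13ra1, Il1r1 and Il27ra. With limma 0 members passed in that comparison, and the smallest adjusted p was 0.24, while 3 had an unadjusted p under 0.05.

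**Figure D5:**
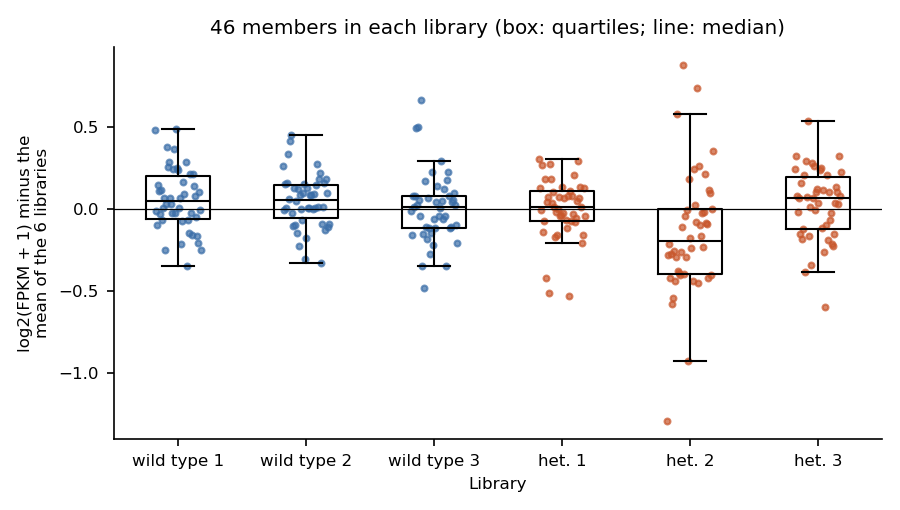
Log2(FPKM + 1) of each of the 46 members minus its mean over the 6 libraries (y axis), by library, with quartile boxes. The median lies between 0.011 and 0.068 in 5 libraries and at -0.194 in heterozygote replicate 2.

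The remaining ligands at 1 FPKM or more were Il4, Il16 and Il18. Il18, an IL-1 family ligand that is activated by caspase-1, measured 1.65 ± 0.332 and 2.19 ± 0.381 FPKM in wild type and heterozygotes, and its binding protein Il18bp measured 1.95 ± 0.231 and 1.69 ± 0.259 FPKM, both with overlapping groups. Il4, the type 2 cytokine that binds Il4ra, was at 3.21, 1.86 and 2.04 FPKM in the wild-type libraries, against 2.45, 3.02 and 2.86 FPKM in the heterozygous ones. Il16, a chemoattractant for CD4+ cells, was at 1.68 ± 0.513 and 1.80 ± 0.290 FPKM.

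Below 1 FPKM, 58 of the 60 members had at least 1 read. Groups were apart, with heterozygotes lower, for 4 of these 58 (6.9%, against 2.11% of all such genes under 1 FPKM) and for 3 as higher (5.17%, against 5.65%). Il11, singled out after its values were seen, encodes IL-11, a gp130 ligand known for fibrosis. It was at 0.680, 0.676 and 0.662 FPKM in the wild-type libraries, against 0.272, 0.230 and 0.327 FPKM in the heterozygous ones. The wild-type libraries were nearly equal, and each was above 2 times the highest heterozygote value. These values rest on few reads, about 26, 26 and 25 in wild type and 10, 8 and 12 in heterozygotes. For Il11 the recovered reads were not whole numbers in every library. Il1b, the inflammatory ligand of Il1r1, was at 10, 15 and 11 reads in wild type and at 5, 6 and 4 reads in heterozygotes. The other lower members were Il10 and Tnfsf11, with at most 5 reads in any library, and the higher ones were Il7r, Il5 and Il12a, of which Il5 and Il12a had at most 4 reads. Il6 had 9, 3 and 2 reads in wild type and 0, 8 and 0 in heterozygotes, and its groups overlapped.

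Genes of the same pathways with other symbols were likewise not called. Of 24 tested gp130 and JAK-STAT genes, 0 passed over all genes and 20 were on the lower side, with a median log2 fold change of -0.10. For 2 of them, both lower, the groups were apart. Without heterozygote replicate 2 the list had 17 on the lower side and a median of -0.095. Groups were then apart for 7 of the 24 as lower and 3 as higher, where all tested genes had 12.5% lower and 20.5% higher. Socs3, the feedback inhibitor of gp130 signalling, was at 4.81, 7.87 and 5.55 FPKM in the wild-type libraries, against 3.37, 3.60 and 3.48 FPKM in the heterozygous ones (limma log2 fold change -0.63 with SE 0.16 and adjusted p = 0.618), and the fold change was -0.65 without heterozygote replicate 2. The heterozygote libraries were close to each other and all below wild type. Osmr, the receptor chain for oncostatin M, had a log2 fold change of -0.56 (SE 0.18, limma adjusted p = 0.71), or -0.36 without heterozygote replicate 2, and the STAT5 target Cish and the ligand Clcf1 had ones of -0.73 and -0.36 with overlapping groups, or -0.86 and -0.16 without that library.

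Among 28 TNF receptor adaptor and NF-kappa-B genes, 0 passed, 18 were on the lower side and the median was -0.02, or 13 and 0.023 without heterozygote replicate 2. The only member with groups that did not overlap was Tnfaip3, the NF-kappa-B induced inhibitor A20, at 2.06, 2.72 and 2.27 FPKM in wild type and 1.68, 1.64 and 1.69 FPKM in heterozygotes (limma log2 fold change -0.32 with SE 0.11 and adjusted p = 0.744), and its fold change was -0.31 without heterozygote replicate 2. The adaptors Traf1, Tradd and the ubiquitin ligase Birc2 had log2 fold changes of -0.31, 0.18 and -0.15, or -0.25, 0.18 and -0.022 without it. Of 10 IL-1 and Toll adaptor genes 0 passed and 9 were on the lower side (median -0.09), with Traf6, Irak2, Tirap and Myd88 at -0.18, -0.19, -0.13 and -0.14. With heterozygote replicate 2 left out, 5 of the 10 were on the lower side and the median was 0.001. These named genes were then at -0.15, -0.033, -0.04 and 0.0072. The list median was not taken with any other library left out. The 6 tested TNF superfamily genes with other symbols had a median of 0.08, or 0.17 without heterozygote replicate 2. In these the lymphotoxin beta gene Ltb, its receptor Ltbr and the death receptor Fas were at 0.54, 0.12 and -0.19, and at 0.20, 0.19 and 0.21 without that library. Of 11 hematopoietic cytokine genes 0 passed (median 0.06), and besides Csf1r the ligand Flt3l and the receptors Csf3r and Epor were at 0.20, -0.30 and 0.30. Without heterozygote replicate 2 the median of these 11 was -0.029 and the values were 0.17, -0.29 and -0.029. The median of all tested genes was 0.015, and groups did not overlap for 5.07% of them as lower and 7.72% as higher.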

How the data were processed

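RNA-seq of aortas from 3 wild-type and 3 PALMD+/- mouse samples was read from the deposited per-sample files, whose FPKM values the authors computed. HISAT2 2.1.0, TopHat2, Bowtie2 2.2.3 and GRCm38 stand in the submitters' processing notes without roles. For the counter and gene models nothing is stated there. FPKM was read from the values: multiplied by exon-union length in GENCODE M21 they were whole reads, within 0.01, for 94.5% to 94.8% of genes with up to 50 reads, which gave the depth per library. Of 29752 identifiers 29687 were in M21. Headers inside the heterozygote files carry other replicate numbers than the titles, and the titles were used.

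Genes with a mean of at least 1 FPKM (12701) were fitted with limma 3.58.1 in R 4.3.3 (mean-variance trend) on log2(FPKM + 1), heterozygote minus wild type, no covariate, Benjamini-Hochberg over all genes, threshold 0.05. Tables and plots used Python 3.11.15, pandas 2.3.3 and matplotlib 3.10.9. The procedure was tested on simulated data. Named genes are all members at 1 FPKM or more, with library values for the 12 highest, those with separate groups or an unadjusted p under 0.05, the 3 just above and below 1 FPKM, and the most variable ones, the last chosen after seeing them, and up to 4 genes a list by smallest p. The members and lists were chosen with earlier results of these data known. Alternatives were pseudocount, filters, scaling, voom on recovered reads, a replicate block, an adipocyte covariate and leaving out each library. List values without heterozygote replicate 2 were added after seeing the data. Promoter windows come from RefSeq, GRCm38.p6.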

Additional observations from a re-analysis of the deposited data

How the results depend on the processing

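No member passed an adjusted p of 0.05 under any alternative run. Unadjusted p under 0.05 was reached by 1360 of 27132 genes and 6 of 104 members without a filter. It was reached by 443 of 7389 genes with a filter of 5 FPKM. With the mean log2(FPKM + 1) of the white adipocyte markers as a covariate, the counts were 2235 of 12701 genes and 8 of 46 members. Groups did not overlap for 5 members higher and 8 lower of 104 without a filter (4.81% and 7.69%, against 6.62% and 3.5% of all genes). With at least 1 FPKM in 3 libraries there were 1 higher and 4 lower of 46 (2.17% and 8.7%, against 7.8% and 5.12%). With the 5 FPKM filter there were 0 higher and 3 lower of 13 (0% and 23.1%, against 6.56% and 5.95%). The cause was not tested, beyond the different genes that a filter tests. Leaving out 1 library at a time gave 0 to 1 genes called higher and 0 to 1 called lower. In these fits 412 to 1750 genes and 0 to 4 members had an unadjusted p under 0.05. Groups were then apart for 2 to 7 members as higher (4.35% to 15.2%, against 10.4% to 20.5% of all genes). They were apart for 5 to 10 members as lower (10.9% to 21.7%, against 7.68% to 12.7% of all genes). The members' median ranged from -0.116 to 0.020. Voom on recovered reads called 0 genes and had 796 at an unadjusted p under 0.05. With the replicate number as a block 0 members were called, with 719 genes and 2 members at an unadjusted p under 0.05. Deviations of samples with the same title number correlated at 0.495, -0.143 and -0.388, which shows no consistent pairing by these numbers. The deviations were taken from the mean of each group of 3 libraries, so they cannot exclude a pairing. Fold changes turned sign with median-of-ratios scaling for Tnfrsf10b (-0.026), Il10ra (-0.005) and Tnfsf13b (-0.012), and with the adipocyte covariate for Tnfrsf10b (-0.021) and Tnfsf13b (-0.004). Over the fits without 1 library the log2 fold change spanned 0 for 31 genes, with ranges of -0.11 to 0.14 for Il13ra1, -0.20 to 0.083 for Tnfrsf11a, -0.16 to 0.015 for Il17d, -0.16 to 0.16 for Tnfrsf11b, -0.070 to 0.12 for Il6ra, -0.035 to 0.083 for Il10ra, -0.088 to 0.12 for Tnfrsf10b, -0.14 to 0.10 for Il15, -0.15 to 0.065 for Il2rg, -0.14 to 0.14 for Tnfrsf18, -0.16 to 0.043 for Tnfrsf4, -0.55 to 0.069 for Il15ra, -0.016 to 0.35 for Tnfsf12, -0.12 to 0.35 for Tnfrsf25, -0.018 to 0.10 for Il10rb, -0.076 to 0.21 for Il16, -0.094 to 0.13 for Tnfsf13, -0.042 to 0.057 for Tnfsf13b, -0.77 to 0.029 for Tnfrsf12a, -0.28 to 0.066 for Il6st, -0.26 to 0.10 for Il1r1, -0.13 to 0.48 for Tnfrsf21, -0.25 to 0.088 for Il3ra, -0.22 to 0.12 for Il27ra, -0.19 to 0.082 for Tnfrsf23, -0.35 to 0.009 for Tnfsf9, -0.32 to 0.007 for Myd88, -0.73 to 2.14 for Ngfr, -0.46 to 0.21 for Fas, -0.029 to 0.50 for Epor, -0.016 to 0.28 for Il11ra1. Values near 1 FPKM rest on few reads, 1 read on a gene of 2 kb being 0.0272 to 0.0289 FPKM. For 11 of the 46 members, other genes overlapped over 10% of the exons or shared over 10% of the 50-base words. Among them were Tnfsf13, Tnfsf12, Il2rg, Tnfrsf18 and Il16, with 60%, 48.3%, 30.5%, 27.2% and 17.4% of their exons overlapped.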

Other observations

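Il4 was at 1.86 to 3.21 FPKM in every library, while Il13, next to it on chromosome 11, had a mean of 0.0467 FPKM. The gene nearest to Il4 is Kif3a, 1015 bases away on the other strand, with a mean of 8.56 FPKM. The labels do not say that the libraries keep strand.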
